A study of Mus musculus with 2 samples.

Results

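Nitric oxide, endothelin and angiotensin II set the tone of the contractile cells that wrap liver sinusoids, and 10 genes of these pathways were followed here among the 31054 features of a single-cell RNA-seq data set of hepatic stellate cells (HSCs). The genes were grouped by function, and the rule that lists them uses no measured value. They were nonetheless chosen with earlier results of these data known. They encode the nitric oxide receptor (Gucy1a1, Gucy1a2 and Gucy1b1), the kinase and phosphodiesterase downstream of it (Prkg1 and Pde5a), the endothelin receptors (Ednra and Ednrb), the peptide endothelin-1 (Edn1), the angiotensin II receptor (Agtr1a) and endothelial nitric oxide synthase (Nos3). All 10 were listed in the files and all are described, whether or not they passed the minimum level used for calls.

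HSCs were isolated from male mice by perfusion with pronase and collagenase and a density gradient, and sequenced as 2 libraries, 1 for each genotype. The p16-Alb-LRTD mice carried p16-CreERT2, Alb-DreERT2 and a Rosa26 reporter in which both a loxP-flanked and a rox-flanked stop had to be removed before tdTomato and the diphtheria toxin receptor were made. The p16-LRTD mice, the control genotype, carried p16-CreERT2 and the same reporter without Alb-DreERT2. Mice of both genotypes received carbon tetrachloride (CCl4) for 4 weeks, tamoxifen and diphtheria toxin, a design meant to eliminate hepatocytes with high p16 in p16-Alb-LRTD only. The driver marks cells in which the p16 promoter is active and the Dre recombinase is restricted to albumin-expressing cells, and the study raises leak of the toxin receptor through the loxP-flanked stop. The age of the mice and the number of mice behind each library are not given in the sources used here.

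In the liver, Nos3 of the endothelium makes nitric oxide, which diffuses into neighbouring cells and activates soluble guanylate cyclase, a pair of 1 alpha and 1 beta subunit. The cyclic GMP it makes activates the kinase Prkg1 and relaxation, and Pde5a breaks cyclic GMP down. On contractile cells, endothelin-1 and angiotensin II act in the opposite sense through receptors coupled to calcium release and contraction. Stellate cells are known to respond to both peptides.

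Cells were placed in classes by marker sums per 10000 unique molecular identifiers (UMIs), where a UMI stands for 1 captured RNA molecule. A stellate cell had at least 15 for Lrat, Ecm1, Hgf and Reln together, an endothelial cell at least 8 for Kdr, Stab2 and Ptprb, and a Kupffer cell, the resident macrophage of the liver, at least 8 for Clec4f, Cd5l, Vsig4 and Csf1r. Of 9004 kept p16-LRTD cells and 7416 kept p16-Alb-LRTD cells, 7852 and 6621 were stellate, 430 and 283 endothelial and 283 and 178 Kupffer cells. Genes outside the rules separated stellate cells from the other classes. Dcn, a stellate proteoglycan, was 57.8-fold and 86.0-fold higher in stellate than in endothelial cells, Pecam1 was 429-fold and 513-fold higher in endothelial than in stellate cells, and Adgre1 was 666-fold and 935-fold higher in Kupffer than in stellate cells. Between endothelial and Kupffer cells the markers differed in how far they separated. Adgre1 was 311-fold and 263-fold higher in Kupffer than in endothelial cells. Pecam1 was 9.87-fold and 5.26-fold, and Cdh5, another endothelial gene, 2.71-fold and 1.73-fold higher in endothelial than in Kupffer cells. The libraries held 193746596 and 162219167 UMIs, and 95 barcode sequences occurred in both. Summed dissociation stress genes (Fos, Jun, Junb, Egr1, Atf3, Hspa1a, Hspa1b and Dnajb1) stood higher in p16-Alb-LRTD in every class, at 4563 and 7253 UMIs per 1000000 (CPM) in stellate cells, at 1957 and 3679 CPM in endothelial cells and at 2092 and 2881 CPM in Kupffer cells.

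Levels are given as CPM, the UMIs of a gene scaled to the summed UMIs of the class, with the limits of 95% Poisson intervals, and differences as log2 ratios of p16-Alb-LRTD over p16-LRTD with exact conditional intervals. With 1 library per genotype there was no test: the intervals cover counting error only, and genotype cannot be told apart from mouse, preparation or run. A gene was counted as higher or lower where its mean level reached 5 CPM, the log2 ratio reached 0.5 in size and the interval excluded 0. Because 3' counting captures genes unequally, levels were compared between cells and not between genes.

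The members that varied together in stellate cells (Gucy1a2 and Prkg1) and the receptor pair whose levels stood on opposite sides between the libraries (Ednra and Ednrb) are shown by the RefSeq promoter, 250 bases before to 50 bases after the transcription start, in the GRCm38.p6 build, which is also the mm10 build of the files. Capitals mark matches on either strand to the GC box GGGCGG, the CAAT box CCAAT, the TATA box TATAAA, the glucocorticoid receptor motif AGAACA, the AP-1 site TGANTCA and the GATA site AGATAA. No match overlapped another of these motifs in the stretches shown. RefSeq starts need not be those of the GENCODE gene coordinates given with each member.
Gucy1a2, chr9:3532099-3532398, plus strand: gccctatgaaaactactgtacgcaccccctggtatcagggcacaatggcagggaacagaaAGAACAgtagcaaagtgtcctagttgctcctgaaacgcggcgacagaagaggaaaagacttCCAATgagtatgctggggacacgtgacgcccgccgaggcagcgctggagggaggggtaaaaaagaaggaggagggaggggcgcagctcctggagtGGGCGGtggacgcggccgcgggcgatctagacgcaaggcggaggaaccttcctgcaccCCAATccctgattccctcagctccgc
Prkg1, first start, chr19:31764984-31765283, minus strand: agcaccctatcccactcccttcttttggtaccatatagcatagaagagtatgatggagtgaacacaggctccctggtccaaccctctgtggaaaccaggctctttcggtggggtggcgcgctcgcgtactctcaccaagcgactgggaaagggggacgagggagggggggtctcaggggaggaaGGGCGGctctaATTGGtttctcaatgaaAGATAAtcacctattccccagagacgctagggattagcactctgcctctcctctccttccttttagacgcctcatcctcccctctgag
Ednra, chr8:77724403-77724702, minus strand: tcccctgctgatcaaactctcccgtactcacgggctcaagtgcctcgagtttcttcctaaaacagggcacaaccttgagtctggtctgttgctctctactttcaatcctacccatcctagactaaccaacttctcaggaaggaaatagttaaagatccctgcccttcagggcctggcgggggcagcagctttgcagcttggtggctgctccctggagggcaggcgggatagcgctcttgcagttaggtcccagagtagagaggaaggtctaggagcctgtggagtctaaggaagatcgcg
Ednrb, chr14:103843652-103843951, minus strand: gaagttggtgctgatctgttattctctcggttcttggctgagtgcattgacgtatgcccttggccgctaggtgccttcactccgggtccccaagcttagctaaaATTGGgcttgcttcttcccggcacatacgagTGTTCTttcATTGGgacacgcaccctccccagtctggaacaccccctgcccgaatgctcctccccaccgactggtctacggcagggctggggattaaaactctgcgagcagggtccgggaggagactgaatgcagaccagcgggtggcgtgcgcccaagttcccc
The Gucy1a2 stretch held a GC box 34 bases and a glucocorticoid receptor motif 190 bases before the start, besides CAAT boxes on both sides of it. The Prkg1 stretch held a GC box 66 bases, a CAAT box 55 bases and a GATA site 38 bases before the start. The Ednrb stretch held CAAT boxes 146 and 106 bases and a glucocorticoid receptor motif 115 bases before the start, and the Ednra stretch held none of the 6 motifs. Among 32851 RefSeq promoters of the same length, 35.7% held the GC box, 37.4% the CAAT box, 19.0% the glucocorticoid receptor motif, 13.6% the TATA box, 11.2% the GATA site and 7.81% the AP-1 site, so that each is common by its letters alone. Promoters were matched for 8 of the 10 genes, and Agtr1a and Nos3 had no entry.

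The receptor for nitric oxide was present in stellate cells as both subunit types. Gucy1a1, the alpha 1 subunit (chromosome 3, 82092427 to 82145789, minus strand), stood at 601 CPM (limits 597 to 605) in p16-LRTD and 503 CPM (limits 499 to 507) in p16-Alb-LRTD, with a log2 ratio of -0.26 (-0.27 to -0.24). Gucy1b1, the beta 1 subunit that the alpha subunits need for activity, lies 17737 bases from it on the same strand (82032006 to 82074689) and stood at 410 CPM (limits 407 to 413) and 362 CPM (limits 358 to 365), with a log2 ratio of -0.18 (-0.20 to -0.16). Gucy1a2, the alpha 2 subunit (chromosome 9, 3532778 to 3894736, plus strand), stood at 388 CPM (limits 385 to 391) and 276 CPM (limits 273 to 279), with a log2 ratio of -0.49 (-0.51 to -0.47). All 3 subunit genes were thus lower in p16-Alb-LRTD than counting error allows, and none reached the fold needed for a call, although Gucy1a2 stood just short of it. In the same class 5 smooth muscle markers summed to 772 and 510 CPM with none at 0, 5 portal fibroblast markers to 79.0 and 39.3 CPM with none at 0 and 4 proliferation genes to 77.1 and 22.7 CPM. With cells holding any UMI of those 4 genes left out (6072 and 4990 cells kept), the log2 ratios were -0.28 for Gucy1a1, -0.53 for Gucy1a2, which then passed the call rule, and -0.22 for Gucy1b1. The part of the smooth muscle and portal fibroblast markers was not tested.

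Downstream of the cyclase, Prkg1 stood slightly higher and Pde5a slightly lower in p16-Alb-LRTD, neither by the fold needed for a call. Prkg1, the cyclic GMP-dependent kinase (chromosome 19, 30564489 to 31765033, minus strand), stood at 2793 CPM (limits 2784 to 2801) in p16-LRTD and 2950 CPM (limits 2941 to 2960) in p16-Alb-LRTD, with a log2 ratio of 0.08 (0.07 to 0.09). Pde5a, the phosphodiesterase that degrades cyclic GMP (chromosome 3, 122728947 to 122859374, plus strand), stood at 73.2 CPM (limits 71.8 to 74.7) and 65.7 CPM (limits 64.3 to 67.2), with a log2 ratio of -0.16 (-0.20 to -0.11). Cstf2t is annotated on the other strand within Prkg1, and whether intronic reads were counted is not given in the sources used here, which matters for a gene of 1201 kb.

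The endothelin receptors stood on opposite sides. Ednra, the type A receptor (chromosome 8, 77663031 to 77724464, minus strand), stood at 577 CPM (limits 573 to 581) in p16-LRTD and 432 CPM (limits 429 to 436) in p16-Alb-LRTD, with a log2 ratio of -0.42 (-0.43 to -0.40). Ednrb, the type B receptor (chromosome 14, 103814625 to 103844402, minus strand), stood at 831 CPM (limits 826 to 835) and 972 CPM (limits 967 to 978), with a log2 ratio of 0.23 (0.22 to 0.24). At a common depth of 5000 UMIs per cell, 89.2% of stellate cells had an Ednra UMI in p16-LRTD (95% exact binomial interval 88.5 to 89.8) and 81.2% (80.2 to 82.1) in p16-Alb-LRTD, while the shares with Ednrb were 94.1% and 94.8%. Before thinning, the Ednra shares were 98.8% and 97.6% and the Ednrb shares 99.3% and 99.3%, at median depths of 17024.5 and 18136 UMIs. As a measure of free RNA, 1.44% and 0% of Kupffer cells had an Ednra UMI at the same thinned depth (4 of 278 and 0 of 177 cells, where a count of 0, limited at 3 counts, allows up to 1.69%).

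Agtr1a, the type 1 angiotensin II receptor (chromosome 13, 30336441 to 30382867, plus strand), had the largest positive ratio of the 8 members tested in stellate cells. It stood at 607 CPM (limits 603 to 612) in p16-LRTD and 844 CPM (limits 839 to 849) in p16-Alb-LRTD, with a log2 ratio of 0.47 (0.46 to 0.49), and the thinned share of cells with a UMI was 91.2% against 95.5% (99.5% and 99.8% unthinned). Among all genes tested in this class, 4.23% had a higher ratio. The near-identical gene Agtr1b had 1 UMI in the stellate cells of p16-LRTD and 0 in those of p16-Alb-LRTD, so reads shared between the copies remain uncertain.

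By the call rule, 0 of 8 members tested in stellate cells were higher and 0 were lower, beside 3.89% and 4.28% of all 10179 genes tested there. By the counting interval alone, 3 members were higher (Prkg1, Ednrb and Agtr1a) and 5 lower (Gucy1a1, Gucy1a2, Gucy1b1, Pde5a and Ednra), where 27.7% and 46.1% of all genes were, since stellate cells were so deeply covered that small differences exceed counting error. The median log2 ratio was -0.17 over the 8 members and -0.05 over all genes tested. The lack of calls rested on the fold limit for Agtr1a and Gucy1a2: with scaling by TMM or by the median of ratios Agtr1a reached 0.52 and was called higher, and with the mean of per-cell levels Gucy1a2 stood at -0.62 and was called lower.

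**Figure D1:**
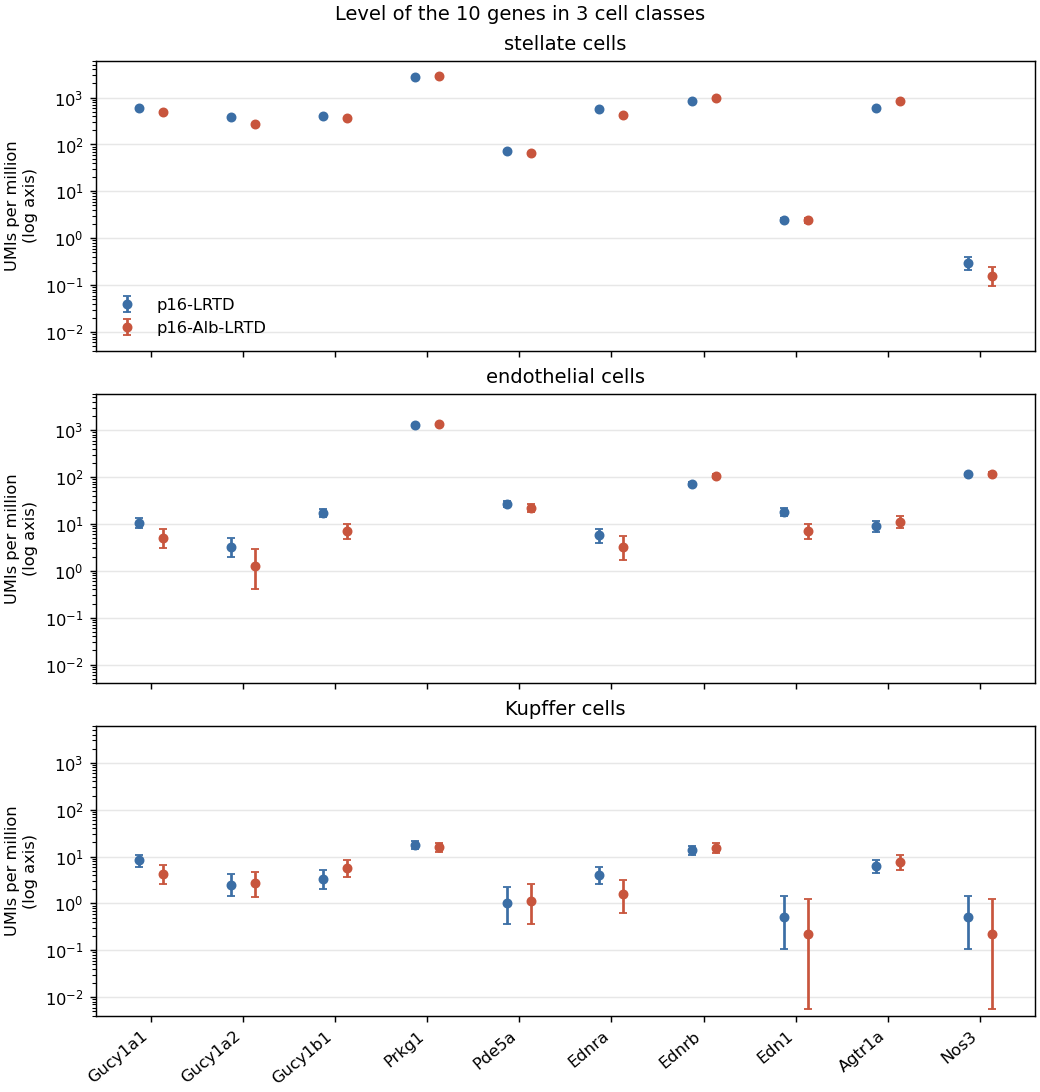
Level of each of the 10 genes (CPM, log axis) in stellate, endothelial and Kupffer cells of p16-LRTD (blue) and p16-Alb-LRTD (red), with 95% Poisson intervals that cover counting error only. Nos3 stands at 115.0 and 115.7 CPM in endothelial cells and below 1 elsewhere, Prkg1 is high in stellate and endothelial cells, and Kupffer cells are low for all 10 genes.

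The synthase sat in endothelial cells. Nos3 (chromosome 5, 24364810 to 24384474, plus strand) had 708 UMIs in the 430 endothelial cells of p16-LRTD, or 115.0 CPM (limits 107 to 124), and 461 in the 283 of p16-Alb-LRTD, or 115.7 CPM (limits 105 to 127), with a log2 ratio of 0.01 (-0.16 to 0.18). In stellate cells it had 42 and 20 UMIs, or 0.294 and 0.160 CPM, so that its level was 391-fold and 724-fold higher in endothelial cells. The share of endothelial cells with a Nos3 UMI was 39.0% and 36.7% at 5000 UMIs and 67.9% and 64.7% unthinned, against 0.166% and 0.0605% of thinned stellate cells. Atg9b and Gm15587 are annotated on the other strand across Nos3.

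Edn1, which encodes endothelin-1 (chromosome 13, 42301476 to 42307990, plus strand), was sparse. Endothelial cells of p16-LRTD had 110 UMIs, or 17.9 CPM (limits 14.7 to 21.5), and those of p16-Alb-LRTD 28 UMIs, or 7.03 CPM (limits 4.67 to 10.2), and Edn1 fell by 1.35 on the log2 scale (interval -2.0001 to -0.74). It was called lower under every alternative that gave a ratio, from -2.28 in cells with 10000 to 30000 UMIs to -0.88 with cells of several classes kept. The transcript was held by 29 of 430 cells, or 6.74% (4.56 to 9.54), and by 9 of 283, or 3.18% (1.46 to 5.95), and these intervals overlap. A single cell of p16-LRTD held 32 of the 110 UMIs and the 10 highest cells held 82.7% of them, so the difference rests on few cells. At 5000 UMIs per cell the shares were 2.63% and 2.12% (11 and 6 cells), and at 3000 UMIs 2.09% and 0.707% (9 and 2 cells). The summed level of 5 smooth muscle markers in the endothelial class was 33.3 CPM in p16-LRTD (2 of 5 at 0) and 5.52 CPM in p16-Alb-LRTD (3 of 5 at 0). That of 5 portal fibroblast markers was 46.3 and 21.3 CPM (0 and 1 of 5 at 0), that of 4 mesothelial markers 5.69 and 0.753 CPM (1 and 1 of 4 at 0) and that of 4 proliferation genes 54.9 and 12.1 CPM. The large-vessel markers Vwf, Selp and Clu summed to 53.9 and 63.0 CPM. Their part in the Edn1 difference was not tested.

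Endothelial cells with a UMI of Vwf, a gene of larger vessels, were few (15 and 12) and carried more of several members. Their Edn1 level was 91.6 CPM (limits 48.8 to 157) in p16-LRTD and 57.6 CPM (limits 27.6 to 106) in p16-Alb-LRTD, against 16.1 (13.1 to 19.7) and 4.72 (2.80 to 7.47) in the other endothelial cells. Their Ednrb level was 571 and 449 CPM, against 58.7 and 92.1 CPM. Their Nos3 level was 218 and 213 CPM, against 113 and 111 CPM. Their Gucy1b1 level was 77.5 CPM (limits 38.7 to 139) and 5.76 CPM (limits 0.146 to 32.1), against 15.6 and 7.09 CPM. Prkg1 stood at 1325 and 1485 CPM in them and at 1303 and 1321 CPM in the others. In cells without a Vwf UMI, Edn1 was lower in p16-Alb-LRTD, on 97 and 18 UMIs. The single p16-LRTD cell with 32 UMIs was among these, since all cells with a Vwf UMI there held 13 Edn1 UMIs together. A cell without a Vwf UMI can still come from a larger vessel, and the part of vessel type was not tested.

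The members fell into separate ranges by how far endothelial cells carried them, read against Dcn, a stellate RNA that should be absent there. The endothelial level of Dcn was 1.73% of the stellate level in p16-LRTD and 1.16% in p16-Alb-LRTD. Prkg1 stood at 46.7% and 45.0% of the stellate level, Pde5a at 36.4% and 33.6% and Ednrb at 8.49% and 11.1%, all well above it. Gucy1a1 stood at 1.73% and 0.998%, Ednra at 0.986% and 0.755%, Agtr1a at 1.47% and 1.31% and Gucy1a2 at 0.837% and 0.454%, near or below the Dcn share, so these values are read as background. Gucy1b1 lay between, at 4.16% and 1.94%.

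Within endothelial cells, 1 of 8 members tested was higher and 3 were lower in p16-Alb-LRTD, beside 7.81% and 15.2% of 9858 genes, whose median log2 ratio was -0.10. Ednrb rose from 70.5 CPM (limits 64.0 to 77.5) to 108 CPM (limits 97.7 to 118), with a log2 ratio of 0.61 (0.42 to 0.81), or 0.71 relative to that median, and the 10 highest cells held 47.9% and 47.3% of its UMIs. The call ended without limits on barcodes (0.34), with stricter class thresholds (0.40) and in cells with 10000 to 30000 UMIs (0.30). The stricter thresholds did not make the class smaller: it had 443 and 285 cells, of which 15 and 3 had met several class rules before. Gucy1b1 fell by 1.28 on the log2 scale, from 17.1 to 7.03 CPM (105 and 28 UMIs), and Gucy1a1 fell by 1.05, from 10.4 to 5.02 CPM (64 and 20 UMIs). Both turned when cells meeting several class rules were kept, to 0.26 for Gucy1b1 and 0.17 for Gucy1a1. The smooth muscle markers of this class summed to 33.3 and 5.52 CPM, and their part in these 2 falls was not tested. The call of Gucy1a1 also ended in cells with 10000 to 30000 UMIs (-0.73, -1.75 to 0.22) and with the mean of CPM per cell (-0.42). Per 100 Dcn UMIs, Gucy1a1 counted 3.26 in endothelial and 3.26 in stellate cells of p16-LRTD, and 1.95 and 2.27 in p16-Alb-LRTD, 1 ratio within counting error in each library. For Gucy1b1 the endothelial ratios were 5.35 and 2.73 against 2.22 and 1.63 in stellate cells. Prkg1 at 1304 and 1328 CPM, Pde5a at 26.6 and 22.1 CPM and Agtr1a at 8.94 and 11.0 CPM had intervals that included 0. The ratio of Agtr1a had no stable direction: it was -0.85 and called lower with stricter class thresholds, and 0.84 and called higher with cells of several classes kept, against 0.31 here.

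In Kupffer cells only 4 members reached the minimum. Gucy1a1 fell by 0.96 on the log2 scale, from 8.24 to 4.25 CPM on 49 and 19 UMIs (a call that ended in cells with 10000 to 30000 UMIs, -1.01, -2.29 to 0.12), making 1 of 4 lower and 0 higher beside 7.58% and 5.8% of 9514 genes tested. Prkg1 stood at 17.3 and 15.6 CPM, Ednrb at 13.8 and 14.98 CPM and Agtr1a at 6.22 and 7.60 CPM, with intervals that included 0. With cells of several classes kept, Ednrb turned from 0.12 to -1.14 and Prkg1 went from -0.15 to -1.11, both then called lower, and Agtr1a turned from 0.29 to -0.33. Of the 8 members tested in stellate cells, the Kupffer level lay between 0.620% and 1.66% of the stellate level in p16-LRTD, beside 1.31% for Dcn, and between 0.362% and 1.70% in p16-Alb-LRTD, beside 1.001% for Dcn. Ednrb (1.66% and 1.54%) and Pde5a (1.38% and 1.70%, on 6 and 5 UMIs) stood above the Dcn share in both libraries, Gucy1a1 (1.37%) in p16-LRTD and Gucy1b1 (1.54%) in p16-Alb-LRTD. Of these, the counting interval left out the value of Dcn for Ednrb alone. Gucy1a1 per 100 Dcn UMIs was 3.42 and 1.91 in Kupffer cells against 3.26 and 2.27 in stellate cells, so this call also sits at the level of stellate background RNA. Edn1 and Nos3 had 3 UMIs each in p16-LRTD and 1 each in p16-Alb-LRTD.

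**Figure D2:**
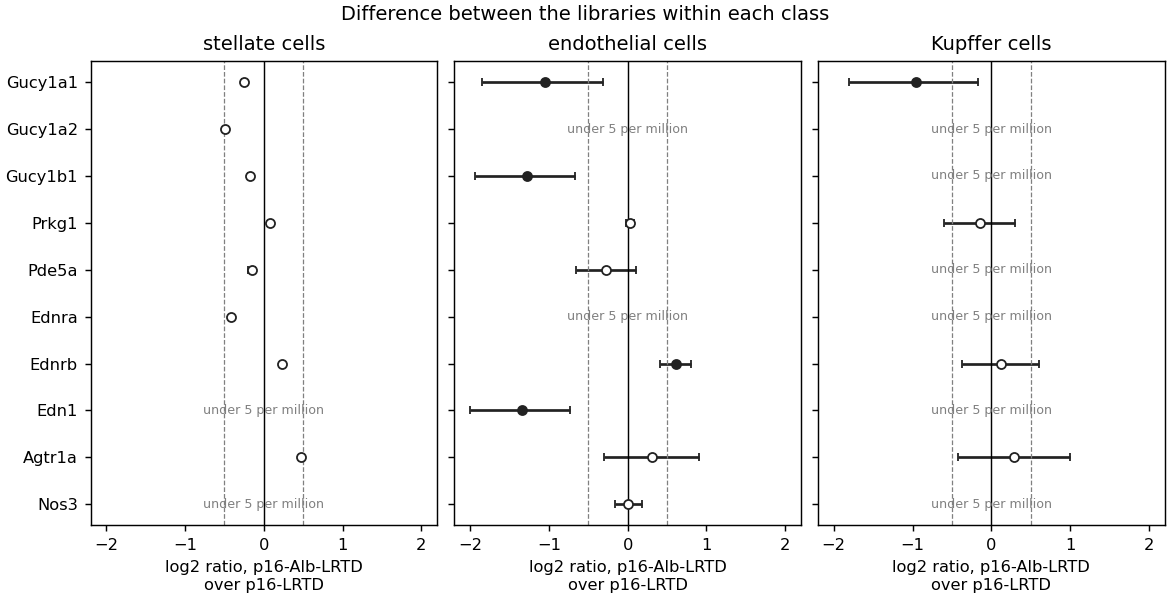
Log2 ratio of p16-Alb-LRTD over p16-LRTD for each gene in each class, with 95% counting intervals; filled points met the call rule, open points did not, dashed lines mark 0.5, and genes with a mean under 5 CPM are not drawn. Stellate points lie between -0.49 and 0.47 with narrow intervals, and the called points are in endothelial and Kupffer cells, where intervals are wide.

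Stellate cells differed among themselves in these genes. At 5000 UMIs the variance of Prkg1 counts over cells was 6.51 times their mean in p16-LRTD and 5.23 times in p16-Alb-LRTD, where counting alone gives about 1. It was 2.85 and 2.33 times for Gucy1a2, 2.12 and 2.19 for Ednrb, and between 1.13 and 1.73 for the other members tested. Across cells the closest pair was Gucy1a2 and Prkg1, with a Spearman correlation of 0.52 over 7836 p16-LRTD cells and 0.33 over 6614 p16-Alb-LRTD cells, given as a description since the cells share library and sparse counts. Ednra and Ednrb had low values cell by cell (0.06 and 0.10), where sparse counts draw any correlation towards 0. Over the groups of cells described below their Pearson correlation was 0.82. Of thinned cells, 84.4% and 77.9% had a UMI of both. A UMI of Gucy1b1 together with one of Gucy1a1 was found in 77.5% and 70.9% of cells.

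Stellate cells were also sorted by collagen (summed Col1a1, Col1a2 and Col3a1) into 4 bins with limits common to both libraries. The top bin held 36.8% of the p16-LRTD stellate cells and 11.0% of the p16-Alb-LRTD stellate cells. In p16-LRTD, Gucy1a2 went from 629 CPM in the lowest bin to 222 in the highest, Gucy1b1 from 582 to 276 and Prkg1 from 4141 to 1894. The other receptor and effector genes were also lower at high collagen, Agtr1a at 838 and 418 CPM, Pde5a at 96.7 and 54.8, Gucy1a1 at 693 and 536, Ednrb at 913 and 783 and Ednra at 605 and 531. The same 8 genes were lower in the top than in the lowest bin of p16-Alb-LRTD, with log2 differences from -1.04 for Gucy1a2 to -0.34 for Gucy1a1. Edn1 had the opposite order, from 0.651 to 4.40 CPM in p16-LRTD (17 and 269 UMIs) and from 0.643 to 10.4 CPM in p16-Alb-LRTD (23 and 148 UMIs).

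In the 3 lower bins the cyclase subunits differed more between the libraries than in all stellate cells. From the lowest to the highest bin the log2 ratio of Gucy1a2 was -0.78, -0.95, -0.82 and -0.31, and that of Gucy1b1 was -0.42, -0.48, -0.44 and -0.21. Gucy1a1 lay between -0.40 and -0.28 in all 4 bins. Ednra was at -0.39, -0.44, -0.53 and -0.70, lower in p16-Alb-LRTD in every bin, and Agtr1a was at 0.22, 0.15, 0.28 and 0.57, higher in every bin. Ednrb was at 0.26, 0.21 and 0.16 in the lower bins and at -0.16 in the highest. Prkg1, slightly higher when pooled, was at -0.20, -0.24 and -0.11 in the lower bins and at 0.10 in the highest. Edn1 was at -0.02 and -0.58 in the 2 lower bins, with intervals that included 0, and at 1.31 (0.74 to 1.91) and 1.24 (0.95 to 1.54) in the 2 higher, on 34 and 104 and on 269 and 148 UMIs. With each library given the pooled shares of the bins, Gucy1a2 (-0.77) and Ednra (-0.51) passed the fold limit, Agtr1a was at 0.27, and Prkg1 turned to -0.14.

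**Figure D3:**
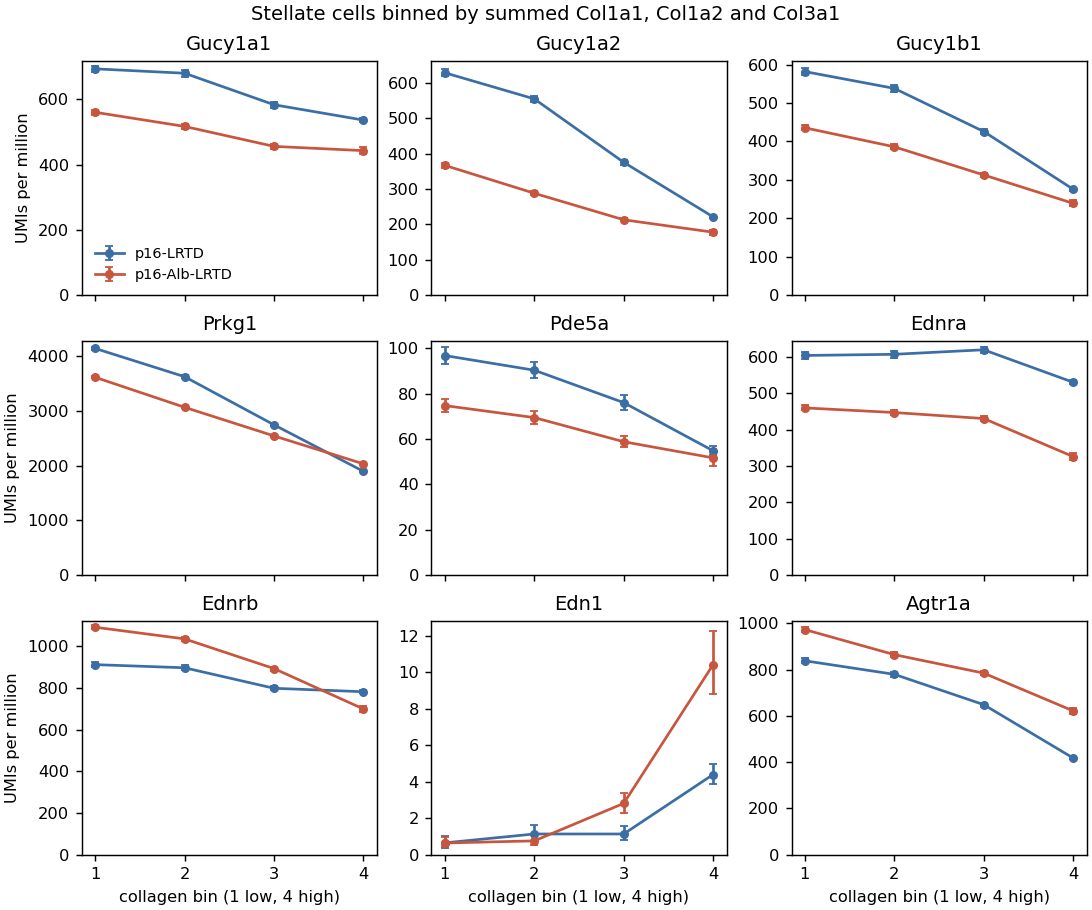
Level of 9 genes (CPM, axes from 0) in 4 bins of stellate cells by summed collagen, from low (1) to high (4), in p16-LRTD (blue) and p16-Alb-LRTD (red) with 95% Poisson intervals. All genes but Edn1 are lower in bin 4 than in bin 1, with Gucy1a2 in p16-LRTD at 629 and 222, and the lines of Prkg1 and Ednrb cross.

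Each library's stellate cells were also divided into 12 groups by k-means on variable genes. Over the groups of p16-LRTD, Gucy1a2 spanned 16.6-fold and Prkg1 11.4-fold, against 2.11-fold for Gucy1a1, 3.42-fold for Ednra and 4.55-fold for Ednrb. A group led by Notch3 and Clstn2 (869 cells) was highest for Gucy1a1 (776 CPM), Gucy1a2 (935), Gucy1b1 (662), Prkg1 (5216), Pde5a (124) and Ednrb (1227). The matching group of p16-Alb-LRTD (583 cells), again led by Clstn2 and Notch3, was highest for Gucy1a1 (716 CPM), Gucy1a2 (655), Gucy1b1 (555), Pde5a (101) and Ednrb (1319). It was not highest for Prkg1 (4520 CPM), which in p16-Alb-LRTD was highest at 5811 CPM in another group, of 159 cells. Notch3 is a receptor known from pericytes. Genes known from stellate cells near the portal vein (Ngfr, Il34, Igfbp3, Rgs4 and Itgb3) summed to 3681 and 2966 CPM in these groups, and genes known from those near the central vein (Adamtsl2, Rspo3, Spon2, Podn and Loxl1) to 287 and 430 CPM. Smooth muscle markers summed to 1707 and 899 CPM and endothelial markers to 134 and 95.9 CPM in them. Their part in the pattern was not tested. The p16-Alb-LRTD group of 159 cells with the highest Prkg1 had Gm42418 and AY036118 among its leading genes. So had a p16-LRTD group of 587 cells, with Prkg1 at 4845 CPM and Gucy1a2 at 828 CPM. What sets these groups apart was not tested. Gucy1a2 and Prkg1 were lowest together, at 56.2 and 458 CPM in a group led by Saa3 and C3 (332 cells, collagen 24713 CPM) and at 51.8 and 679 CPM in a group of p16-Alb-LRTD led by Ddit3 and Creld2 (321 cells, collagen 4490 CPM).

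A small group led by Wt1 and C3 stood apart in both libraries (254 and 321 cells, 3.23% and 4.85% of stellate cells). It had the lowest Ednra, at 216 and 171 CPM, the lowest Ednrb, at 270 and 319 CPM, and the lowest Gucy1b1, at 176 and 177 CPM, and in p16-LRTD also the lowest Agtr1a (245 CPM). It also had the highest Edn1, at 19.9 CPM (limits 16.3 to 24.0) and 27.7 CPM (limits 23.6 to 32.3), where the next groups had 6.70 and 4.42 CPM. The group held 106 of 349 Edn1 UMIs of stellate cells in p16-LRTD (30.4%) and 163 of 304 in p16-Alb-LRTD (53.6%). Of 4 mesothelial markers, Wt1 stood at 633 and 543 CPM in it, while Msln was at 5.06 and 0 CPM, Upk3b at 2.62 and 0.340 CPM and Krt19 at 1.499 and 0 CPM. Dcn (11140 and 13746 CPM), Lrat, the vitamin A storage enzyme (557 and 906 CPM), and Ecm1 (450 and 689 CPM) were lower there than in any other of the 12 groups of each library. Portal fibroblast markers summed to 494 and 356 CPM there, and their part was not tested. Over all stellate cells Edn1 was at 2.45 and 2.43 CPM, although it was higher in p16-Alb-LRTD within the 2 bins of higher collagen. It had a UMI in 2.27% and 2.45% of stellate cells (0.766% and 0.771% thinned) and in 0.707% and 0.562% of Kupffer cells (0 of 278 and 0 of 177 thinned, which allows up to 1.08% and 1.69% at 3 counts).

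**Figure D4:**
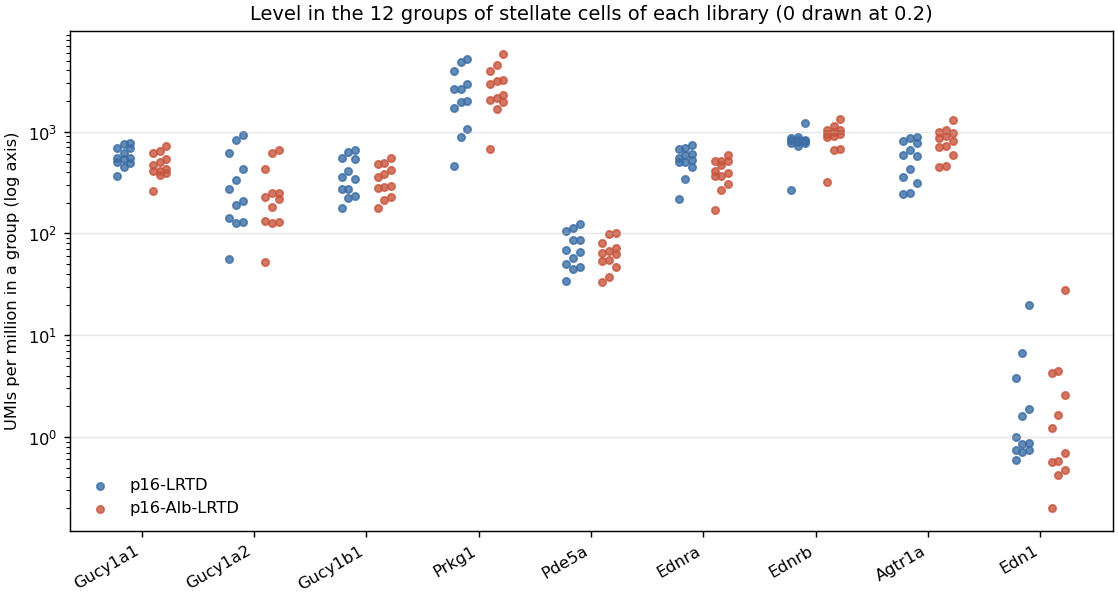
Level (CPM, log axis) of 9 genes in the 12 k-means groups of stellate cells of each library, each point a group, p16-LRTD in blue and p16-Alb-LRTD in red; a level of 0 is drawn at 0.2. Gucy1a2 and Prkg1 spread widest among the receptor and effector genes, and 1 group of each library stands above the others for Edn1, at 19.9 and 27.7 CPM.

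Likeness was measured as Pearson correlation of log levels over the 24 groups of both libraries, centred within library, and is a description of groups that share libraries and were formed from the same cells. Gucy1a2 was most like Cacnb2 (r = 0.99), Plcl1 (0.98) and Ptprk (0.98), and its r with Prkg1 was 0.96. Gucy1b1 was most like Trpm6 (0.99), Gm6277 (0.97) and Lama1 (0.97). Gucy1a1 was most like Speg (0.90), Pear1 (0.88) and Plekha2 (0.88). Agtr1a was most like Adamts13 (0.97), Myo18a (0.97) and Hoxb3os (0.95), and Ednrb was most like Bco1 (0.88), Abcg1 (0.88) and Casp12 (0.87). Coro2b (0.93) and Nectin3 (0.93) were among the 3 genes most like Ednra, and between the endothelin receptors r was 0.82. Prkg1 was most like Map4k3 (0.99), Arhgap32 (0.98) and Pde3a (0.98). Pde5a was most like Rassf3 (0.96), Ccdc82 (0.95) and Arid1a (0.95).

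Other genes of the pathways were taken from 4 lists. Of 19 listed nitric oxide and cyclic GMP genes in the files, 11 were tested in stellate cells, where 1 was higher and 1 lower, beside 3.89% and 4.28% of all genes tested, with a median log2 ratio of -0.15. Npr3, the clearance receptor for natriuretic peptides, rose from 89.0 to 213 CPM (log2 ratio 1.26, 1.23 to 1.29), and Nos1, neuronal nitric oxide synthase, fell by 0.59 on the log2 scale, from 7.20 to 4.79 CPM. Of 7 endothelin genes 1 was tested, and it was higher: Ece1, which cleaves the endothelin precursor, went from 200 to 300 CPM (0.58, 0.56 to 0.60). Of 14 angiotensin genes 4 were tested and 0 were called. Of 21 genes of receptor coupling and contraction 17 were tested, 0 were higher and 2 lower, with a median of -0.04. Rgs4, which shortens signalling by receptors coupled to Gq and Gi, fell by 0.96, from 101 to 52.0 CPM, and Plcb4, a phospholipase C downstream of Gq, fell by 0.52, from 14.5 to 10.1 CPM.

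In endothelial cells 12 nitric oxide and cyclic GMP genes were tested, with 4 higher and 3 lower, beside 7.81% and 15.2% of all genes tested, and a median log2 ratio of 0.09 beside -0.10 over all genes. Among those higher, Pde2a, a phosphodiesterase stimulated by cyclic GMP, rose from 25.5 to 45.7 CPM (0.84, 0.52 to 1.16) and Gch1, which makes the synthase cofactor, rose by 0.63 on the log2 scale. Among those lower, Vasp, an actin regulator and substrate of Prkg1, fell by 0.76 and Ddah1, which breaks down an inhibitor of the synthase, by 0.62. The third was Pde3a, a phosphodiesterase inhibited by cyclic GMP (-1.19), whose endothelial level was 1.15% and 0.620% of the stellate level, below the Dcn share of 1.73% and 1.16%, so it is read as background. Npr2, the receptor for C-type natriuretic peptide, also rose (0.73). Gch1 and Ddah1 lie outside the limit of 5 named genes per list and were named after their values were seen. Of 1 endothelin and 4 angiotensin genes tested there, 0 were called. Of 16 coupling genes tested, Plcb1 (1.18) and Plcb4 (0.74) rose. Mylk, the myosin light chain kinase, fell by 0.91, at 8.19% and 3.93% of its stellate level. The smooth muscle markers of the endothelial class summed to 33.3 and 5.52 CPM, and their part in the Mylk difference was not tested. In Kupffer cells 6 nitric oxide and cyclic GMP, 1 endothelin, 4 angiotensin and 15 coupling genes were tested, and 2 were higher and 1 lower, beside 5.8% and 7.58% of all genes tested. Gch1 rose from 26.7 to 50.1 CPM (0.90), Ece1 rose from 64.6 to 93.9 CPM (0.54) and Anpep, an aminopeptidase, fell by 0.52, from 43.6 to 30.4 CPM. The endothelial and Kupffer calls rest on 1 library each with few cells.

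Cells that met no class rule (194 and 113) held further Gucy1a1 and Edn1, the 10 highest cells holding 68.7% and 93.3% of their Edn1 UMIs. Gucy1a1 was at 211 CPM (limits 198 to 225) in p16-LRTD and 90.8 CPM (limits 79.7 to 103) in p16-Alb-LRTD, and Edn1 at 18.6 CPM (limits 14.8 to 23.0) and 5.63 CPM (limits 3.15 to 9.28). In p16-LRTD, 26 of these cells had at least 5 smooth muscle marker UMIs per 10000, and in them Gucy1a1 stood at 668 CPM (limits 606 to 735) and Edn1 at 53.5 CPM (limits 37.0 to 74.7). There were 4 such cells in p16-Alb-LRTD, too few to set beside them.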

How the data were processed

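HSC libraries were made with the 10x Genomics 3' v3.1 kit. The files the authors deposited hold unnormalised UMI counts for each barcode from Cell Ranger 7.0.1 with the mm10 genome; the gene annotation is not given in the sources used here. The authors' limits were kept: a mitochondrial share of at most 5%, 2000 to 7000 genes and at most 50000 UMIs. Everything else was computed here with Python 3.11.15, numpy 2.4.6, scipy 1.17.1, pandas 2.3.3 and scikit-learn 1.9.0, with TMM factors from edgeR 4.0.16.

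Counts were summed per library and class over cells meeting exactly 1 class rule (245 and 221 cells met several, 180 and 197 of them stellate and endothelial, and were left out). No doublet caller was run. Shares of cells were compared after thinning to 5000 UMIs, leaving out shallower cells (16 and 7 stellate, 12 and 0 endothelial, 5 and 1 Kupffer). Groups came from k-means on 20 principal components of 1000 variable genes. Ratio intervals were checked only on counts simulated from the Poisson model that they assume. That check cannot show how they fare with the added variance between cells seen here. Gene coordinates came from GENCODE vM21 (GRCm38), in which 31011 of 31054 identifiers were found. Of 20 listed nitric oxide and cyclic GMP symbols, 19 were in the files.

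The members and lists were chosen with earlier results of these data known. The text names all 10 members, list genes only where they met the call rule (at most 5 per list and class, passed in 1 endothelial list by Gch1 and Ddah1), and, for members of at least 20 CPM in stellate cells, the 3 genes most like them; 2 genes that this rule names are not reported here. Alternatives changed the barcode limits, class rules, scaling, depth range, minimum level, fold limit, thinning depth and the make-up of stellate cells.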

Additional observations from a re-analysis of the deposited data

Results flagged for a closer look

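Pooled stellate values hid opposite directions within collagen bins for a pair of members, each with counting intervals that excluded 0. Prkg1 had log2 ratios of -0.20, -0.24 and -0.11 in the 3 lower bins and 0.10 in the highest. Ednrb had 0.26, 0.21 and 0.16 in the lower bins and -0.16 in the highest. The difference between bins was not tested.

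Among the pathway genes named, 4 stood on opposite sides in different classes with counting intervals that excluded 0 in both directions, and these differences were not tested either. Plcb4 had a log2 ratio of -0.52 in stellate and 0.74 in endothelial cells. Mylk had 0.15 in stellate and -0.91 in endothelial cells. Ddah1 had 0.13 in stellate and -0.62 in endothelial cells. Vasp had -0.15 in stellate, -0.76 in endothelial and 0.26 in Kupffer cells.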

How the results depend on the processing

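No paired analysis was possible because 1 library stands for each genotype, and no replicate could be left out. Over 164 recomputed log2 ratios of 20 member and class pairs, 14 changed sign and 68 left the counting interval. In stellate cells the sign changed only for Prkg1 (-0.14 with pooled collagen bins). The intervals are narrow there: the ratios of Gucy1a2 ranged from -0.77 to -0.37, of Ednra from -0.51 to -0.37 and of Agtr1a from 0.27 to 0.52. With pooled shares of stress bins, an alternative added after seeing the data, Gucy1a2 was at -0.37, Agtr1a at 0.49 and Prkg1 at 0.14.

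Stellate members called higher numbered 1 without barcode limits, with TMM and with median of ratios scaling. Those called lower numbered 1 with cells of several classes kept, stricter thresholds, cells of 10000 to 30000 UMIs and the mean of CPM per cell. They also numbered 1 with cells with a UMI of Mki67, Top2a, Cdk1 or Ccnb1 left out, and 2 with pooled collagen bins. Gucy1a2 was called lower in each of these settings. With no minimum level 1 was called lower, and it was Nos3, on 42 and 20 UMIs, and not Gucy1a2. For the mean per cell the main intervals were used, and for pooled bins none. Endothelial members called higher numbered 0 without barcode limits, with stricter thresholds, with 10000 to 30000 UMIs and with a fold limit of 1, and 2 with cells of several classes kept. Those called lower numbered 1 with cells of several classes kept, where Gucy1a1 (0.17) and Gucy1b1 (0.26) reversed, and 6 with stricter thresholds. Kupffer members called lower numbered 7 with cells of several classes kept, 2 with stricter thresholds, a minimum of 1 CPM or none, and 0 with 10000 to 30000 UMIs or a fold limit of 1. The causes were not tested. TMM and median scaling moved all endothelial ratios by 0.08 and 0.10. Thinning to 3000 in place of 5000 UMIs moved the endothelial Edn1 share in p16-Alb-LRTD from 2.12% to 0.707%. At the endothelial depth 3 UMIs amount to 0.487 and 0.753 CPM.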
